A study of Mus musculus with 20 samples.

Results

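The renin-angiotensin genes described here are 9 genes chosen by symbol, Ren1, Agt, Ace, Agtr1a, Agtr1b, Enpep, Mme, Anpep and Atp6ap2, out of 47069 genes in the count table. Each symbol matched exactly 1 gene, and 8 of the 9 were abundant enough to enter the test, in which 17622 genes took part. Agtr1b did not pass the filter on low counts and is described by its counts. The genes were chosen by name, with earlier results of these data known.

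Whole-kidney RNA was sequenced from 20 male mice, aged 15 weeks, to ask how a mouse model of Alport syndrome and 2 treatments of it change kidney gene expression. Mice of the WT group (n = 5) were wild type, and those of the other groups were homozygous for the Col4a3 knockout (Col4a3-/-), on a shared 129SJ x C57Bl/6J background. The knockout mice received PBS once weekly (Veh, n = 6), weekly subcutaneous lademirsen, an antisense blocker of miR-21, at a dose of 50 mg/kg (Anti-miR-21, n = 6), or ramipril, an inhibitor of the angiotensin-converting enzyme, at 11 mg/L in the drinking water with PBS (ACEi, n = 3). The labels give this dose, and the deposited library table gives ramipril as another dose, by body weight. Treatment began at 5 weeks of age, the knockout is not limited to a cell type, and no treated WT mice were studied.

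In the classical pathway, renin cleaves angiotensinogen (Agt) to angiotensin I, which the angiotensin-converting enzyme (Ace) turns into angiotensin II. Angiotensin II acts on the AT1 receptor, which mice encode in the paralogs Agtr1a and Agtr1b, and in the kidney it lowers renin synthesis in a feedback loop. Aminopeptidase A (Enpep), neprilysin (Mme) and aminopeptidase N (Anpep) trim or degrade angiotensin peptides, and these peptidases and Ace are abundant on the brush border of the proximal tubule. Atp6ap2 encodes the (pro)renin receptor, which is also an accessory subunit of the vacuolar proton pump.

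Expression is given as CPM, counts relative to a fixed library size, after scaling between libraries with the TMM method. Differences are log2 fold changes from edgeR's quasi-likelihood test with Benjamini-Hochberg adjustment over all genes tested. The SE after ± was computed as the size of the log2 fold change over the square root of the test's F statistic. The 95% intervals use this SE with 16 degrees of freedom, so an interval can be slightly wider than the p-value implies. A gene was called at an adjusted p under 0.05. Each library held between 28474272 and 29479600 counts on genes. Col4a3 ranged from 193.8 to 237.5 CPM in WT mice and from 27.9 to 74.9 CPM in the 15 knockout mice. The summed CPM of 8 proximal tubule markers ran from 17134 to 21695 in WT, 2108 to 5286 in Veh, 9004 to 15643 in Anti-miR-21 and 9324 to 11710 in ACEi mice. All 8 of these markers were called lower in Veh than in WT mice and higher with either treatment than in Veh mice. In whole-kidney RNA, fewer cells of a type and less RNA per cell cannot be told apart.

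In the kidneys of Veh mice 7 of the 8 tested genes were lower than in WT mice, led by Ace, Anpep and Enpep, and angiotensinogen was not called different. Under anti-miR-21 all 8 tested genes were higher than in Veh mice. Under ACEi 6 were higher, and renin stood far above every other group. Between the treatments only renin was called different by edgeR, and DESeq2 also called Mme.

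The count of 7 lower genes of 8 tested in Veh against WT mice stands beside 73.0% of all tested genes called in either direction and 34.0% called lower. Their median log2 fold change was -1.10, and that of all tested genes was 0.07. For Anti-miR-21 against Veh mice the background was 59.2% of all tested genes called, 28.8% higher, and the median of the 8 genes was 1.01 against -0.04 over all. For ACEi against Veh mice it was 40.1% called, 21.0% higher, and the medians were 0.89 and -0.05. Both treatment comparisons share the same 6 Veh mice, so their results are not independent of each other. In each of these 3 comparisons 6 of the 8 genes had CPM ranges that stayed apart, beside 54.9%, 36.4% and 38.6% of all tested genes respectively. In the direct comparison of the treatments 0.584% of all tested genes were called, 0.221% lower.

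The scaling matters for the small differences. With library totals alone, the median log2 fold change of all tested genes moved from 0.07 to 0.65 in Veh against WT mice. The calls among the 8 genes then became 2 higher and 5 lower, beside 81.2% of all tested genes called in either direction. The genes that turned were Atp6ap2, which became higher (0.17), and Mme, which was no longer called (0.15), while Agt became higher (0.66). Ren1, Ace, Agtr1a, Enpep and Anpep were lower under every scaling tried.

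**Figure D1:**
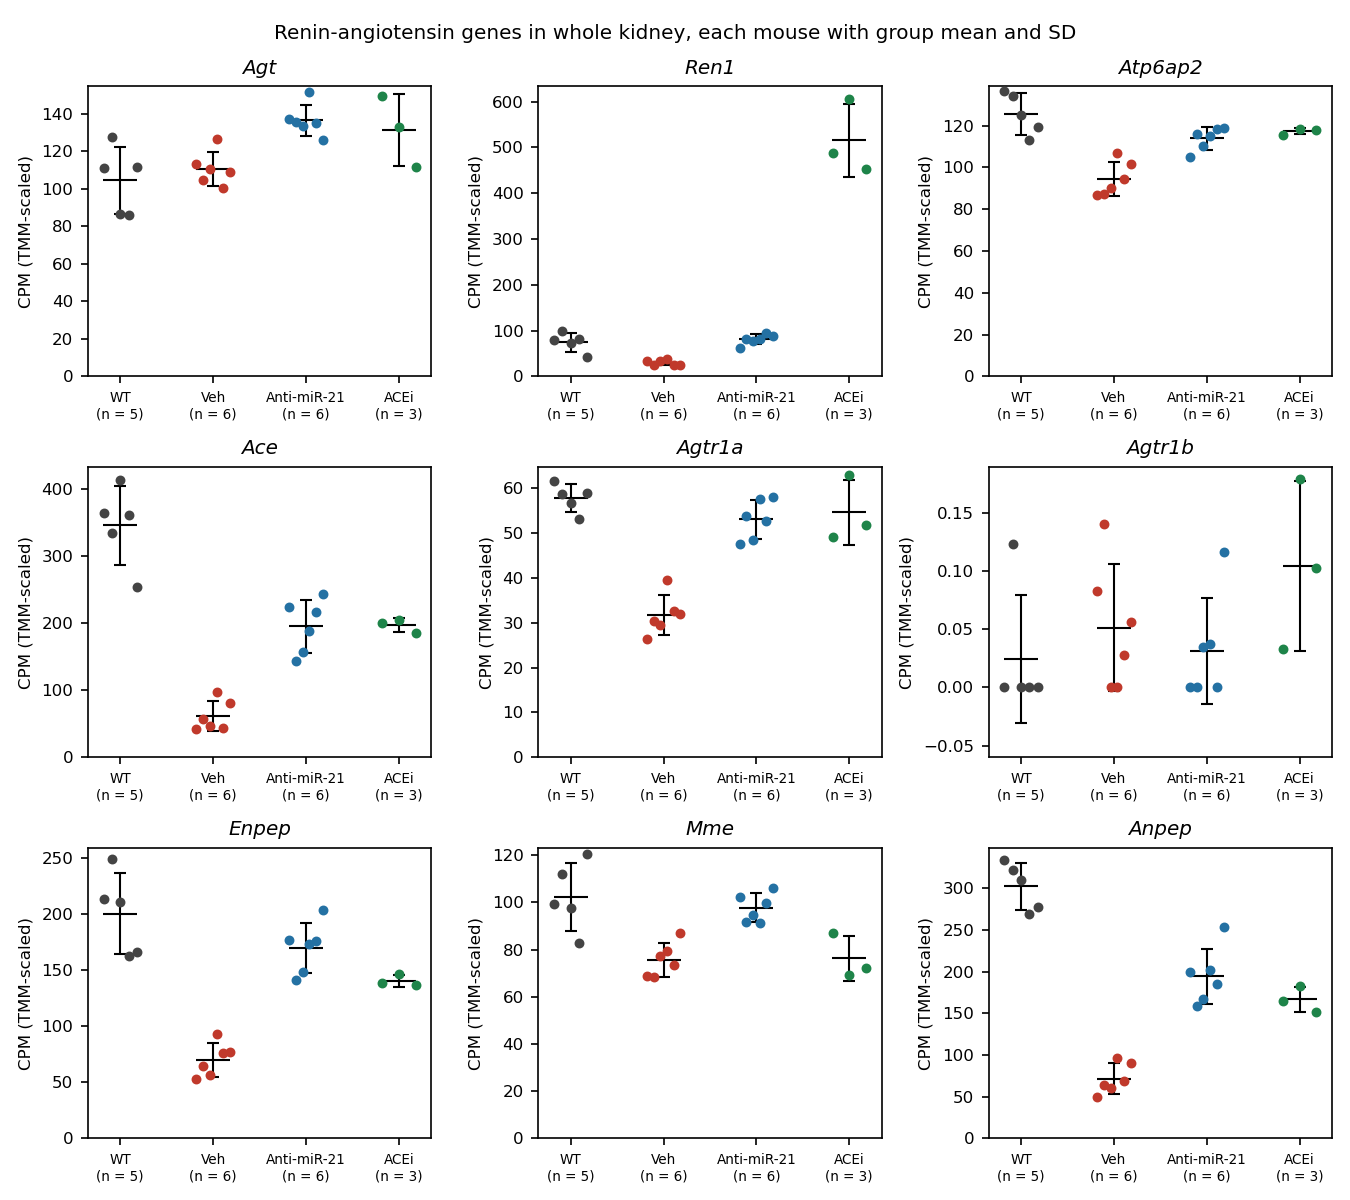
CPM of each of the 9 genes (y axis, from 0 except for Agtr1b, own scale per panel) in each mouse by group (x axis). Points are mice, and horizontal lines with bars give the group mean and SD. Ren1 in the 3 ACEi mice, between 452.7 and 605.3 CPM, lies above the other 17 mice, and Ace, Anpep and Enpep of Veh mice lie below all other groups.

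Agt, on chr8:124556534-124569706 (GRCm38, minus strand), encodes the substrate of renin. It measured 86.1, 86.7, 111, 111.9 and 127.6 CPM in the 5 WT mice and between 100.4 and 126.4 CPM (median 109.7) in Veh mice. The groups overlapped, and the log2 fold change of 0.08 ± 0.10 did not pass the test (adjusted p = 0.461, edgeR). Anti-miR-21 mice ranged from 126.3 to 151.6 CPM (median 135.3) and were higher than Veh mice by 0.30 ± 0.09 (adjusted p = 0.00806, edgeR), with an overlap of the ranges at the edge. The 3 ACEi mice measured 111.5, 133 and 149.7 CPM, a difference from Veh mice of 0.25 ± 0.11 that did not pass (adjusted p = 0.085, edgeR). With library totals alone the differences of both treatments from Veh mice changed sign (-0.03 and -0.02) and neither was called.

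Ren1, on chr1:133350510-133360325 (GRCm38, plus strand), encodes renin, the enzyme that limits the rate of the pathway and is made by juxtaglomerular cells. Strains of the 129 line carry Ren2, a nearly identical copy of this gene that the reference genome of C57BL/6J lacks, and the deposited FPKM table names this locus Ren2. Reads of the 2 copies were therefore not told apart, and the Ren1 values may hold both.

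Ren1 measured 41.7, 72.3, 80.4, 80.6 and 98.2 CPM in WT mice. In Veh mice it ranged from 23.8 to 37.7 CPM (median 29.3), below every WT mouse. The log2 fold change was -1.33 ± 0.17 (adjusted p = 5.46e-07, edgeR), or 2.51-fold lower. The WT mouse at 41.7 CPM was also the lowest WT mouse for Ace, and without it the Ren1 difference was -1.48.

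Anti-miR-21 mice ranged from 62.1 to 93.9 CPM (median 82.2) for Ren1, all above the Veh mice. The difference was 1.44 ± 0.16 on the log2 scale (adjusted p = 4e-07, edgeR), and against WT mice it was 0.12 ± 0.17 and did not pass (adjusted p = 0.598, edgeR; 95% interval -0.24 to 0.47). The 3 ACEi mice measured 452.7, 487.9 and 605.3 CPM. That is 17.3-fold the Veh level (4.11 ± 0.19, adjusted p = 6.06e-11, edgeR) and 6.90-fold the WT level (2.79 ± 0.20, adjusted p = 1.21e-09, edgeR). Compared directly, Ren1 in Anti-miR-21 mice was 6.36-fold lower than in ACEi mice (-2.67 ± 0.19, adjusted p = 1.09e-07, edgeR).

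The ACEi mice came from both flow cells, and the Ren1 difference from Veh mice was 3.99 within flow cell A, with 1 ACEi library, and 4.11 within flow cell B. Of 3 other genes of renin-producing and neighbouring vascular cells, 1 was called higher in ACEi than in Veh mice, 1 lower and 1 neither. Akr1b7, which is expressed in renin cells of the mouse, was higher, at 13.8 ± 2.59 CPM (SD, n = 3) in ACEi and 4.21 ± 1.10 CPM (SD, n = 6) in Veh mice. Rgs5, a gene of pericytes, was lower (-0.44, adjusted p = 0.00414, edgeR), and Gja5, which encodes connexin 40, differed by 0.18 and did not pass (adjusted p = 0.214, edgeR). The summed CPM of the 3 genes, between 77.6 and 105 in Veh and between 77.7 and 80.8 in ACEi mice, is mostly that of Rgs5, which averaged 75.4 CPM in Veh and 55.7 CPM in ACEi mice.

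The region upstream of the RefSeq start of Ren1 is shown because this gene had the largest change, beside those of Agt, which moved little, and Ace, which fell most in Veh mice. Each sequence is the 250 bases before the start (RefSeq, GRCm38.p6), at chr1:133350424-133350673 (plus strand) for Ren1, chr8:124569707-124569956 (minus strand) for Agt and chr11:105967698-105967947 (plus strand) for Ace. Capitals mark matches on either strand to TATAAA, the letters of a TATA box. The other motifs searched were the CCAAT box, the core of the cyclic AMP response element, spelled TGACG, and an arm of the HNF1 site, spelled GTTAAT.
Ren1: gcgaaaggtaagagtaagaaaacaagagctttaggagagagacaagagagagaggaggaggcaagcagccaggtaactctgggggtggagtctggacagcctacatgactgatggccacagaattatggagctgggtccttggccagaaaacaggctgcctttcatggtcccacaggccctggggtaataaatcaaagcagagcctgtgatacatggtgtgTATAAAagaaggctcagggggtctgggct
Agt: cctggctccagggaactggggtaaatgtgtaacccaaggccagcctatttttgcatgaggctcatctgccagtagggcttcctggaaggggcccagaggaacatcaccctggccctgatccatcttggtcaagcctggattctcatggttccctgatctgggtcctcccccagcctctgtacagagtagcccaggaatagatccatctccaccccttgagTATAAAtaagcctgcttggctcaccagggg
Ace: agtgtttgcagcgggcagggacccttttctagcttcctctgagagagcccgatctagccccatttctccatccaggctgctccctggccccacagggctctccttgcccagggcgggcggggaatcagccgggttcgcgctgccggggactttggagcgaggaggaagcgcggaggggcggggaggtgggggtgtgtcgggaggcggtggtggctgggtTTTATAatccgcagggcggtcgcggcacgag

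All 3 held 1 match to TATAAA, which began 29 bases before the start in Ren1, 30 in Agt and 31 in Ace, where it is on the opposite strand. Such a match was found in 12.4% of 32851 RefSeq promoters of this length. None of the 3 held CCAAT (33.9% of promoters), TGACG (17.8%) or GTTAAT (6.43%) in this window. Promoters with the same TATA letters thus belonged to genes that moved in different ways, and nothing follows from a match or its absence about a factor. Ace has another RefSeq start, with its window at chr11:105974939-105975188. That window held no match to TATAAA and 1 to CCAAT, on the opposite strand, 25 to 21 bases before the start. The GENCODE model of Ren1 begins upstream of the RefSeq start, inside the window shown.

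Atp6ap2, on chrX:12587801-12617049 (GRCm38, plus strand), encodes the (pro)renin receptor. It ranged from 113 to 136.5 CPM in WT mice and from 86.7 to 106.8 CPM in Veh mice, with no overlap. The difference was -0.41 ± 0.06 (adjusted p = 7.83e-06, edgeR), the smallest among the 7 lower genes, and its sign turned with library totals alone. It was higher than in Veh mice by 0.27 ± 0.06 in Anti-miR-21 mice (adjusted p = 0.000817, edgeR) and by 0.31 ± 0.07 in ACEi mice (adjusted p = 0.00243, edgeR). With library totals alone these became -0.07 and 0.04 and neither was called.

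Ace, on chr11:105967945-105989964 (GRCm38, plus strand), encodes the enzyme that ramipril blocks. A non-coding gene on the other strand, Gm11651, overlaps it, and the use of strand in the counting is not given in the sources used here. It measured 254.2, 334.7, 361.5, 364 and 414.1 CPM in WT mice and between 42.5 and 97.9 CPM (median 51.6) in Veh mice. Every Veh mouse was below every WT mouse, and Ace fell most of the 8 genes, by 5.63-fold (-2.49 ± 0.20, adjusted p = 9.04e-10, edgeR).

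Ace in Anti-miR-21 mice ranged from 143.2 to 243.5 CPM (median 202.7), above all Veh and below all WT mice. The difference from Veh was 1.67 ± 0.19 (adjusted p = 4.94e-07, edgeR) and from WT -0.82 ± 0.20 (adjusted p = 0.00223, edgeR). ACEi mice measured 185, 200 and 205.3 CPM, higher than Veh by 1.68 ± 0.22 (adjusted p = 1.87e-05, edgeR) and lower than WT by -0.81 ± 0.24 (adjusted p = 0.0095, edgeR). The call against WT was lost with library totals alone (-0.50, adjusted p = 0.0611, edgeR) and with limma on log2(FPKM + 1) (-0.42, adjusted p = 0.0978). The treatments differed by -0.01 ± 0.23, with a 95% interval of -0.49 to 0.48, wide enough to hold a sizeable difference in either direction. For each 1000 CPM of the summed proximal tubule markers, Ace made up 18.4 ± 3.05 CPM (SD) in WT, 19.3 ± 2.23 in Veh, 16.6 ± 2.69 in Anti-miR-21 and 19.6 ± 1.92 in ACEi mice, a ratio taken after the values had been seen. These ratios overlapped between all 4 groups, which was not so for the other brush border genes, whose ratios are given with the markers. The sum weights each marker by its abundance, so the ratios depend on that weighting. Singly, the 8 markers changed by -2.94 to -1.42 on the log2 scale in Veh against WT mice (median -2.17).

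The AT1 receptor was almost wholly Agtr1a, on chr13:30336441-30382867 (GRCm38, plus strand). Agtr1a measured 53.1, 56.8, 58.7, 58.9 and 61.6 CPM in WT mice and 26.3 to 39.6 CPM (median 31.2) in Veh mice, without overlap. The difference was -0.87 ± 0.09 (adjusted p = 2.37e-08, edgeR). Anti-miR-21 mice lay between 47.6 and 58.1 CPM (0.74 ± 0.08 against Veh, adjusted p = 4.6e-07, edgeR) and ACEi mice at 49.1, 51.8 and 62.9 CPM (0.78 ± 0.10 against Veh, adjusted p = 1.74e-05, edgeR). Neither treated group was called different from WT mice, with 95% intervals of -0.31 to 0.06 for Anti-miR-21 and -0.31 to 0.14 for ACEi. With library totals alone ACEi mice were called higher than WT mice (0.23).

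Agtr1b, on chr3:20314473-20367177 (GRCm38, minus strand), was close to undetected. It had between 0 and 5 counts in every mouse, with sums of 3 counts over the 5 WT mice, 11 over the 6 Veh mice, 5 over the 6 Anti-miR-21 mice and 9 over the 3 ACEi mice. As a share of all AT1 receptor counts it was 0.0418% ± 0.0935 (SD, n = 5) in WT and 0.173% ± 0.185 (SD, n = 6) in Veh mice. The shares were 0.056% ± 0.078 (SD, n = 6) in Anti-miR-21 and 0.182% ± 0.109 (SD, n = 3) in ACEi mice. None of the 3 differences passed a two-sided exact permutation test (Veh against WT p = 0.221, Anti-miR-21 against Veh p = 0.219, ACEi against Veh p = 0.881). Adjusted over the 6 ratios and shares tested, of which 3 are not reported here, these exact permutation p-values were 0.265, 0.265 and 0.881. The smallest p that 3 against 6 mice allow is 0.0119, and a difference in Agtr1b was not detectable at these counts.

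The 3 peptidases that act on angiotensin peptides fell to different degrees in Veh mice. Enpep, aminopeptidase A, which turns angiotensin II into angiotensin III, lies on chr3:129269175-129332720 (GRCm38, minus strand) and overlaps a pseudogene, Gm42628. It measured 162.5, 165.5, 210.7, 213.4 and 248.7 CPM in WT mice and 52.8 to 92.5 CPM (median 70.1) in Veh mice. The groups did not overlap, and the difference was -1.52 ± 0.14 (adjusted p = 3.52e-09, edgeR). Anti-miR-21 mice ranged from 141.3 to 203.4 CPM and ACEi mice from 136.3 to 145.9 CPM. They were higher than Veh mice by 1.28 ± 0.13 (adjusted p = 1.4e-07, edgeR) and 1.01 ± 0.15 (adjusted p = 5.3e-05, edgeR). ACEi mice stayed below all WT mice (-0.51 ± 0.17, adjusted p = 0.0148, edgeR), a call lost when the first or the third ACEi mouse was left out (adjusted p = 0.0517 and 0.0562, edgeR). It was also lost with library totals alone (-0.20, adjusted p = 0.256, edgeR), within flow cell B (-0.21, adjusted p = 0.233, edgeR) and with limma on log2(FPKM + 1) (-0.18, adjusted p = 0.376). Anti-miR-21 mice were not called different from WT (-0.24 ± 0.13, adjusted p = 0.16, edgeR).

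Anpep, aminopeptidase N, which acts on angiotensin III, lies on chr7:79821803-79861059 (GRCm38, minus strand) and overlaps Gm44974. It measured 269.8, 277.1, 310.2, 322 and 334.2 CPM in WT mice and 49.1 to 96.7 CPM (median 66.4) in Veh mice. No Veh mouse reached the WT range, and the difference was -2.08 ± 0.15 (adjusted p = 1.6e-10, edgeR). Anti-miR-21 mice ranged from 158.8 to 253.2 CPM and ACEi mice from 152.1 to 182.7 CPM, between the Veh and the WT ranges without touching either. The differences from Veh were 1.44 ± 0.14 (adjusted p = 9.98e-08, edgeR) and 1.22 ± 0.16 (adjusted p = 2.07e-05, edgeR). Those from WT were -0.64 ± 0.14 (adjusted p = 0.00145, edgeR) and -0.86 ± 0.18 (adjusted p = 0.000632, edgeR).

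Mme, neprilysin, which converts angiotensin I to angiotensin-(1-7) and is also found on podocytes, lies on chr3:63241537-63386030 (GRCm38, plus strand). It ranged from 82.8 to 120.4 CPM in WT mice and from 68.2 to 87.2 CPM in Veh mice, which overlapped. The difference of -0.44 ± 0.09 passed the test (adjusted p = 0.000173, edgeR) but turned to 0.15 with library totals alone, where it was not called. Anti-miR-21 mice, at 91.1 to 106.3 CPM, lay above all Veh mice (0.37 ± 0.08, adjusted p = 0.000938, edgeR), a call not made with library totals alone (0.03). ACEi mice measured 69.4, 72.3 and 87.2 CPM and stayed within the Veh range (0.01 ± 0.10, adjusted p = 0.944, edgeR; 95% interval -0.21 to 0.23). They were lower than WT mice by -0.43 ± 0.11 (adjusted p = 0.00323, edgeR), again not called with library totals alone (-0.11). Mme was the gene closest to a difference between the treatments after Ren1, and Anti-miR-21 and ACEi mice did not overlap (0.36 ± 0.11, adjusted p = 0.125, edgeR), whereas 8.99% of all tested genes did not overlap there. DESeq2 called this difference (0.36, adjusted p = 0.0462).

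The mature sequence of miR-21, the target of lademirsen, is shown with its seed (bases 2 to 8) in capitals, together with the Mme site that matches it. The microRNA comes from chr11:86584120-86584141 (RefSeq, GRCm38.p6, minus strand), and capitals in the Mme line mark the complement of the seed.
mmu-miR-21a-5p: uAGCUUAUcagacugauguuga
Mme site: taacttaattATAAGCTtcgaataaat

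The complement of the seed, ATAAGCT, was searched in the longest GENCODE 3′ untranslated region of each gene. Mme, whose region of 5698 bases was by far the longest of the 9, held 1 match, at bases 5527 to 5533, and the other 8 genes, with regions of 187 to 1176 bases, held none. Of 21037 genes with such a region 7.18% held a match. A match is no proof of a site, and its part in the Mme values was not tested.

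**Figure D2:**
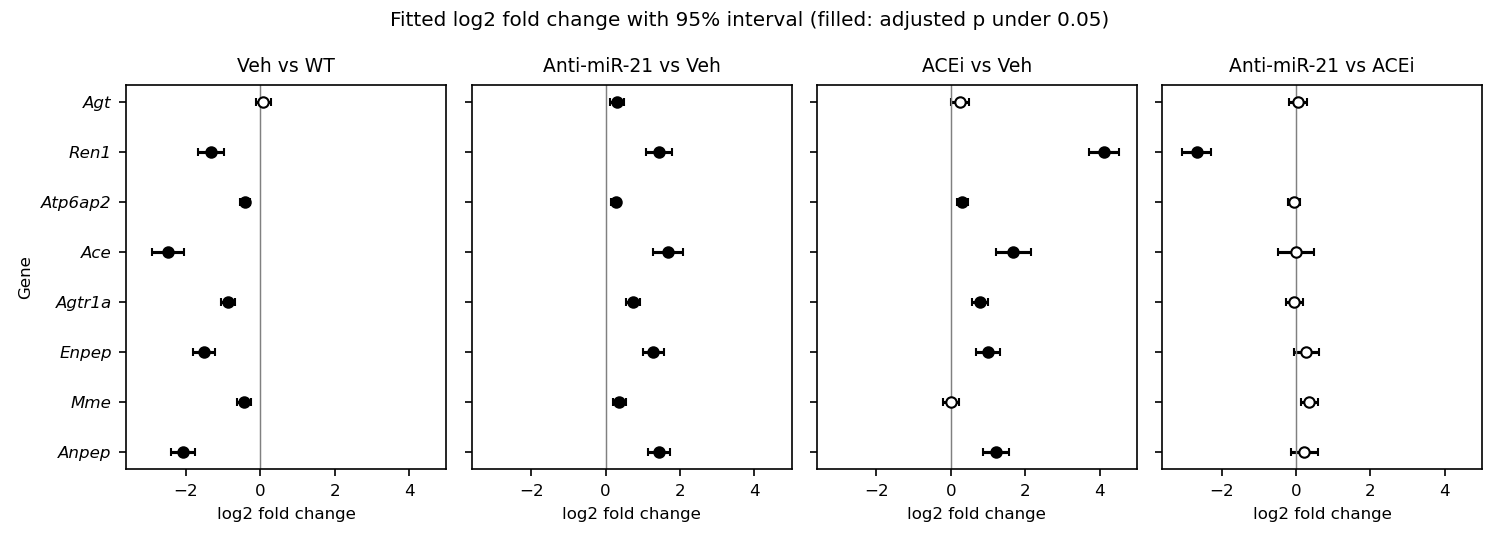
Log2 fold change (x axis) of the 8 tested genes (y axis) in 4 comparisons, with the 95% interval computed from the SE. Filled points passed at an adjusted p under 0.05. All points for Anti-miR-21 against Veh are filled and above 0, and in the comparison of the treatments Ren1, at -2.67, is the filled point.

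Set against the distance between Veh and WT mice on the log2 scale, the 7 genes that were lower in Veh mice came back to different extents. Under anti-miR-21 the share regained was 109% for Ren1, 85.7% for Agtr1a, 84.3% for Enpep, 84.2% for Mme, 69.3% for Anpep, 67.1% for Ace and 65.5% for Atp6ap2. Under ACEi it was 310.1% for Ren1, 90.5% for Agtr1a, 76.03% for Atp6ap2, 67.4% for Ace, 66.2% for Enpep, 58.6% for Anpep and 2.59% for Mme. These shares are descriptions that reuse the same Veh and WT mice. The shares depend on the scaling. With library totals alone the differences of Mme and Atp6ap2 between Veh and WT mice turned to 0.15 and 0.17, so that there was no fall to regain. Agtr1a then differed by -0.28 in Veh against WT mice, and by 0.40 in Anti-miR-21 and 0.51 in ACEi against Veh mice, more than its fall. For Ren1 these values were -0.75, 1.10 and 3.84, and for Enpep -0.94, 0.94 and 0.74. Against WT mice, 3 of the 8 genes were called in Anti-miR-21 mice (background 43.7% of all tested genes), with Agt higher (23.9% of all tested genes were) and Ace and Anpep lower (19.8%). In ACEi mice 6 were called (background 47.7%), with Ren1 and Agt higher (25.2%) and Ace, Enpep, Mme and Anpep lower (22.5%). The Agt call in ACEi mice (0.33 ± 0.12, adjusted p = 0.0248, edgeR) was lost on leaving out any of 4 mice. With library totals alone the split for ACEi became 4 higher and 1 lower, beside 53.1% of all tested genes called.

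On average the summed proximal tubule markers, Ace, Anpep and Enpep were highest in WT, lowest in Veh and intermediate in both treated groups. Mme in ACEi mice stayed at the Veh level (76.3 and 75.7 CPM). All 6 Veh mice, and all mice of each treated group, were below the WT range in both the summed markers and Anpep and Ace. Per 1000 CPM of the markers, Anpep made up 16.1 ± 0.71 CPM (SD) in WT, 23.2 ± 3.36 in Veh, 16.4 ± 1.67 in Anti-miR-21 and 16.5 ± 1.02 in ACEi mice. The ratio also stood higher in Veh than in WT mice, with ranges apart, for Enpep (10.6 ± 1.64 in WT and 22.9 ± 3.68 in Veh) and Mme (5.48 ± 0.93 and 25.9 ± 7.61). For Agt, which changed little in CPM, it was 5.58 ± 0.96 in WT and 37.99 ± 12.1 in Veh mice. Markers of macrophages, fibroblasts and T cells were called higher in Veh than in WT mice, 5 of 5, 5 of 5 and 4 of 4 respectively. So were 4 of 5 podocyte, 4 of 5 smooth muscle, 4 of 5 adipocyte and 3 of 6 endothelial markers, with 1 endothelial marker lower. Over all tested genes 39.0% were called higher and 34.0% lower in this comparison. Adipocyte markers were high in some of the Veh libraries only, as given below. How much of each gene's difference goes with the amount of proximal tubule RNA was not tested.

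**Figure D3:**
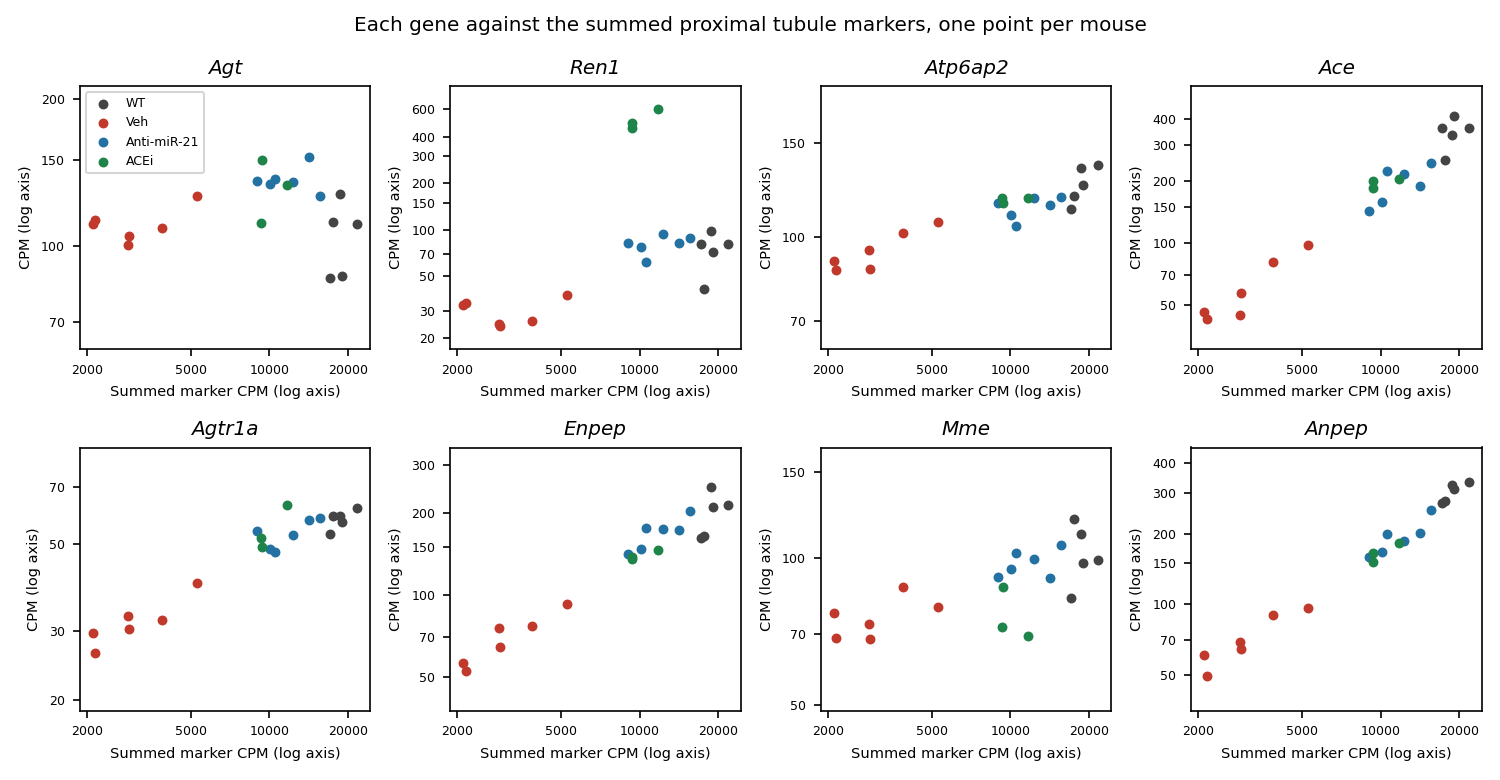
CPM of each of the 8 tested genes (y axis, log scale) against the summed CPM of 8 proximal tubule markers (x axis, log scale), with 1 point per mouse coloured by group. Ace, Anpep and Enpep rise with the markers from the Veh to the WT mice, and Ren1 of the ACEi mice lies above all other points.

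Within the Veh group the mouse with the highest marker sum, 5286 CPM, was also the highest for Ren1 (37.7 CPM), Agt (126.4), Ace (97.9), Agtr1a (39.6), Enpep (92.5), Anpep (96.7) and Atp6ap2 (106.8). That library was sequenced on flow cell B. Its TMM factor, 1.12, was the lowest of the Veh libraries (1.23 to 1.26 in the others), which raises all its CPM values. The part of the scaling in these ranks was not tested. Flow cell B held 2 WT, 2 Veh, 1 Anti-miR-21 and 2 ACEi libraries, and the Veh against WT difference in Ace was -2.95 within flow cell A and -1.79 within flow cell B, both called. Within flow cell B 5 of the 8 genes were called for Veh against WT, beside 50.1% of all genes tested there, and neither Mme (-0.29, adjusted p = 0.254, edgeR) nor Atp6ap2 (-0.16, adjusted p = 0.208, edgeR) was. For ACEi against Veh 4 were called there, beside 7.35%, and neither Agtr1a (0.65, adjusted p = 0.0564, edgeR) nor Atp6ap2 (0.17, adjusted p = 0.293, edgeR) was. For Anti-miR-21 against Veh, all 8 genes were called within flow cell A, beside 53.5% of all genes tested there. Within flow cell B, with a lone Anti-miR-21 library, 2 were (Enpep and Anpep), beside 2.33% of all genes tested there.

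FPKM, which accounts for transcript length, allows levels of different genes to be compared within a mouse. In WT mice the order of mean FPKM was Ace (70.6 ± 12.3, SD), Anpep (66.8 ± 5.17), Agt (46.9 ± 8.22), Atp6ap2 (43.7 ± 2.94), Ren1 (40.2 ± 11.7), Enpep (39.1 ± 7.21), Agtr1a (20.9 ± 0.73), Mme (13.1 ± 1.92) and Agtr1b (0.0194 ± 0.0433). Ace and Anpep overlapped, as did each neighbouring pair from Agt to Enpep, while Agtr1a, Mme and Agtr1b each stood apart from the genes above them. In Veh mice Agt led (74.8 ± 3.36), ahead of Atp6ap2 (49.7 ± 3.39), and the ranges of each neighbouring pair from Ren1 (24.1 ± 3.96) through Anpep, Enpep, Ace (19.4 ± 5.77) and Agtr1a to Mme (14.7 ± 1.53) overlapped.

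In Anti-miR-21 mice Agt again led (72.8 ± 6.46 FPKM), followed by Ren1, Anpep, Ace and Atp6ap2, whose neighbouring ranges overlapped between 51.5 and 47.1. In ACEi mice Ren1 took the first place with 344.2 ± 43.4 FPKM, apart from Agt at 73.5 ± 12.1. The FPKM values are not scaled by TMM, and Ace is marked as confounded with another gene in the deposited annotation. The deposited annotation lists an exon length of 0 for Atp6ap2. The length behind its FPKM values, and so its place in these orders, could not be checked.

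**Figure D4:**
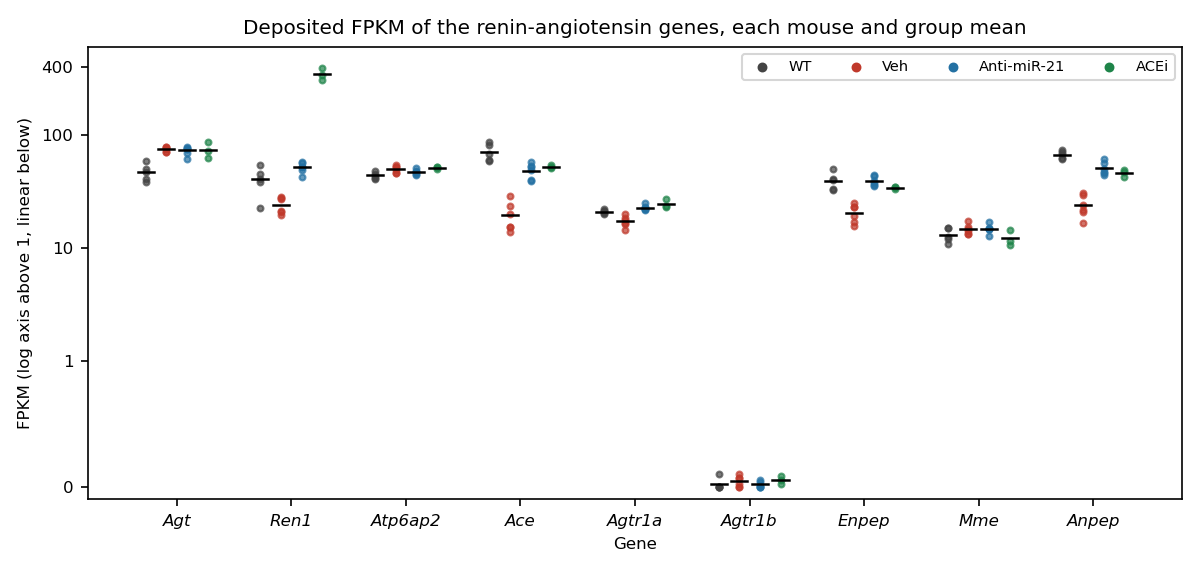
Deposited FPKM (y axis, log scale above 1 and linear below) of the 9 genes (x axis) in each mouse, coloured by group, with black lines at group means. Agtr1b stays below 0.1 in all 20 mice, and Ren1 averages 344.2 in ACEi mice.

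Of 20 further genes of the pathway 17 were tested, and of these 4 were called higher and 8 lower in Veh than in WT mice, 7 higher and 4 lower in Anti-miR-21 than in Veh mice, and 7 higher and 3 lower in ACEi than in Veh mice. Over all tested genes 39.0% were called higher and 34.0% lower in the first of these comparisons, 28.8% and 30.5% in the next, and 21.0% and 19.1% in the last. None was called between the treatments, by edgeR, where 3 had an unadjusted p under 0.05 and DESeq2 called 0. Their median log2 fold changes in the first 3 comparisons were -0.07, 0.11 and 0.09. Mas1, the receptor of angiotensin-(1-7), was low, at 2.0 to 6.3 CPM in WT and 0.56 to 3.46 CPM in Veh mice (-1.20 ± 0.36, adjusted p = 0.00522, edgeR), and it was higher than in Veh mice with either treatment (0.89 ± 0.34, adjusted p = 0.0323, and 1.22 ± 0.40, adjusted p = 0.021, edgeR). Agtr2, the AT2 receptor, had at most 5 counts in any mouse and was not tested.

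Klk1, tissue kallikrein, which releases kinins, fell by 2.14 ± 0.17 on the log2 scale in Veh mice (adjusted p = 8.04e-10, edgeR) and was higher under anti-miR-21 (1.28 ± 0.16) and ACEi (1.22 ± 0.19). It has close paralogs, so its counts may include reads of these. Ctsd, the lysosomal protease cathepsin D, went the other way, at 816 to 959 CPM in WT and 1370 to 2228 CPM in Veh mice (0.96 ± 0.12, adjusted p = 2.18e-07, edgeR). It was lower than in Veh mice under anti-miR-21 (-0.64 ± 0.11) and ACEi (-0.55 ± 0.13). Rnpep, aminopeptidase B, was higher in Veh than in WT mice (0.20 ± 0.08, adjusted p = 0.0258, edgeR) and lower than in Veh with either treatment (-0.36 ± 0.07 and -0.26 ± 0.09). Cma1, a mast cell chymase that can form angiotensin II, had 5 to 19 counts in Veh mice, at most 3 in WT, 6 in Anti-miR-21 and 2 in ACEi mice. It was called higher in Veh than in WT (adjusted p = 0.00175, edgeR), but its level was so low that no fold change is given.

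Over all 20 mice, the genes most like each of the 8 in log2 CPM were found by Pearson correlation, as a description over mice that fall into groups. Among the 5 genes most like Ren1 were Utp4 (r = 0.814), Akr1b7 (0.808), Dpp7 (0.788) and Rnf115 (0.788). Of these Akr1b7 rose most in ACEi mice, while Utp4 averaged 25.1 CPM in Veh and 32.1 CPM in ACEi mice, a far smaller step than that of Ren1. Among the 3 genes most like Agt was Cyp4a12b (0.783).

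The brush border genes had closer neighbours. Among the 3 genes most like Anpep were Mthfd1 (r = 0.995) and Ndufs1 (0.995). Enpep was most like Cubn (0.99), Lrp2 (0.989) and Abca3 (0.987), where Cubn and Lrp2 encode the endocytic receptors cubilin and megalin of the proximal tubule. Ace was most like C1qtnf3, Pcx and Acad10 (each 0.989), Agtr1a like Slc5a11 (0.983), Gnpda1 (0.983) and Cela1 (0.981), and Atp6ap2 like Dab2 (0.973), Stx3 (0.97) and Mfsd1 (0.969). Among the 3 genes most like Mme were Map3k7 (0.894) and BC049762 (0.889). No member of the set was among the nearest 3 genes of another.

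Adipocyte markers summed to between 90.1 and 120.3 CPM in 3 Veh libraries and to 99.7 CPM in 1 Anti-miR-21 library, against at most 22.4 CPM in the other 16. With those 4 libraries left out, the calls among the 8 genes were 7 lower in Veh against WT, 7 higher in Anti-miR-21 against Veh, where Agt was lost (0.28, adjusted p = 0.0809, edgeR), and 6 higher in ACEi against Veh mice. Of all tested genes 67.7% were called for Veh against WT mice in that fit. Of the further genes, 5 in place of 11 were then called for Anti-miR-21 and 6 in place of 10 for ACEi against Veh mice, while the share of all tested genes called fell from 59.2% to 46.4% and from 40.1% to 26.7%. Mast cell markers, of which both that could be tested were called higher in Veh than in WT mice, were near 0 in all groups (at most 2.21 CPM summed), and those of the adrenal gland summed to between 2.17 and 4.10 CPM.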

How the data were processed

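The authors extracted RNA from whole kidneys, sequenced it and aligned the reads with the OmicSoft aligner in OmicSoft Studio to GRCm38, with Ensembl gene models. They deposited expected counts per gene, total alignment counts and FPKM values, which are fragments relative to transcript length and library size. Of the positive expected counts 29.1% had a fractional part other than exactly 0, and all were rounded. Genes without a symbol held 0.0919% of counts. The FPKM table held 3 columns of no labelled sample, which were not used. Its entries were matched to the genes by symbol, and that of Ren1 by coordinates, without using the exon lengths in its annotation. Whether mice of a group shared a litter is not given in the sources used here, so p-values measure the spread between these mice.

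Genes were filtered with filterByExpr (minimum count 10, minimum total 15), scaled by TMM and fitted over all 4 groups with edgeR 4.0.16 (R 4.3.3, 16 residual degrees of freedom), with Benjamini-Hochberg adjustment over all genes. Ratios and shares were compared by exact permutation tests. CPM for likeness were taken on the log2 scale with a prior count of 2. On simulated data of 17239 to 17252 genes, of which 195 to 198 changed 2-fold, the fit recovered 79.3% of changed genes for Veh against WT, 74.9% for Anti-miR-21 against Veh and 75.0% for ACEi against Veh mice, and 5.42%, 5.81% and 4.55% of calls were false. The changed genes were few and rose or fell in about equal number, whereas 73.0%, 59.2% and 40.1% of tested genes were called in the data. The simulation therefore could not test the scaling under changes as broad as these. Alternatives used DESeq2 1.42.0, limma 3.58.1 on log2(FPKM + 1) and log2(FPKM + 0.1), other scalings and filters, the flow cells, and each mouse left out.

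The text names all 9 members, Agtr2 and Mas1, of the further pathway genes the up to 3 that rose and 3 that fell most among those called in each comparison of the study, and the 5 genes most like Ren1 and 3 most like each other member. Members and lists were chosen with earlier results of these data known. Some genes and results that this rule selects are not reported here.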

Additional observations from a re-analysis of the deposited data

How the results depend on the processing

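No paired analysis was possible because each mouse has a name of its own and no number is shared between the groups. The count of members called for Anti-miR-21 against Veh mice fell from 8, beside 59.2% of all tested genes, to 5 with library totals alone, beside 69.9%. It was also 5 with limma on log2(FPKM + 1) or log2(FPKM + 0.1), beside 58.3% and 57.9%. In flow cell B alone, which holds 1 Anti-miR-21 library, the fold changes of all 8 were smaller, from 0.08 for Atp6ap2 to 1.28 for Ren1. Between the treatments it was 2 in place of 1 with DESeq2, which added Mme, and 0 in flow cell B. Of the further pathway genes, leaving out the 4 adipocyte-rich libraries, an alternative chosen after seeing the data, left 5 calls for Anti-miR-21 and 6 for ACEi against Veh mice. For ACEi against WT mice 2 of the further genes were called higher and 2 lower in the main fit, beside 47.7% of all tested genes. The count called was 8 with library totals alone, beside 53.1% of all tested genes. It was 2 to 5 with a mouse left out, beside 38.1% to 47.8% of all tested genes. The Agtr1b share difference for ACEi against Veh mice was -0.0538 percentage points from FPKM and -0.0408 to 0.0676 with a mouse left out.

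Signs turned as follows, on the log2 scale. With library totals alone, Veh against WT gave Mme 0.15 and Atp6ap2 0.17, Anti-miR-21 against Veh gave Agt -0.034 and Atp6ap2 -0.072, and ACEi against Veh gave Agt -0.020 and Mme -0.26. Likewise Anti-miR-21 against ACEi gave Agt -0.014, Anti-miR-21 against WT gave Agtr1a 0.12, Mme 0.17 and Atp6ap2 0.10, and ACEi against WT gave Agtr1a 0.23 and Atp6ap2 0.22. With limma on FPKM and a pseudocount of 1 or 0.1, Veh against WT gave Mme 0.16 or 0.18 and Atp6ap2 0.18 or 0.18, Anti-miR-21 against Veh gave Agt -0.043 or -0.044 and Atp6ap2 -0.075 or -0.077, and ACEi against Veh gave Agt -0.037 or -0.037 and Mme -0.26 or -0.27. The same fits gave Agt -0.0066 or -0.0066 for Anti-miR-21 against ACEi. For Anti-miR-21 against WT they gave Agtr1a 0.11 or 0.12, Enpep 0.014 or 0.014, Mme 0.17 or 0.18 and Atp6ap2 0.10 or 0.11, and for ACEi against WT Agtr1a 0.22 or 0.22 and Atp6ap2 0.22 or 0.22. In flow cell A, Agt was -0.0012 for Veh against WT, Ren1 -0.0095 for Anti-miR-21 against WT, and Ace 0.13 and Agtr1a 0.055 for Anti-miR-21 against ACEi. In flow cell B, Mme was -0.086 for ACEi against Veh, Agt -0.079 and Anpep -0.057 for Anti-miR-21 against ACEi, and Agtr1a 0.0009 and Atp6ap2 0.011 for ACEi against WT. Mme for ACEi against Veh was also -0.063 with upper-quartile scaling, -0.012 with flow cell as a term, -0.0035 with FPKM divided by the TMM factors and -0.040 without the adipocyte-rich libraries. Ace for Anti-miR-21 against ACEi was 0.0996 with flow cell as a term. With a mouse left out, Mme ranged from -0.090 to 0.082 for ACEi against Veh, Ace from -0.080 to 0.068, Agtr1a from -0.11 to 0.073 and Agt from -0.048 to 0.16 for Anti-miR-21 against ACEi, and Ren1 from -0.033 to 0.24 for Anti-miR-21 against WT. The scaling turned the signs named under it by its construction, and the cause of the other changes was not tested.

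Replicates are numbered here within each group, apart from the names of the mice. Agt for ACEi against Veh mice passed without Veh replicate 4 (0.32, adjusted p = 0.0295, edgeR) or ACEi replicate 3 (0.36, adjusted p = 0.0296, edgeR). Its call for ACEi against WT mice was lost without WT replicate 3 or 4 or ACEi replicate 1 or 2 (adjusted p = 0.064, 0.0626, 0.161 and 0.0586, edgeR). Atp6ap2 for Anti-miR-21 against WT mice passed without WT replicate 4 (adjusted p = 0.0359, edgeR). Agtr1b and Agtr2 had too few counts to test, and the 3 ACEi mice limit every comparison with that group.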
